A study of Mus musculus with 12 samples.

Results

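The 10 genes described here encode proteins that hold back signals from the T cell receptor. They were chosen by name (Cd5, Cd6, Ptpn22, Ptpn6, Cblb, Rnf128, Dgka, Dgkz, Ubash3a and Sla), and every probe set annotated to one of them alone was taken, 19 of the 45101 probe sets and 10 of the 18193 genes on the array. The data are 12 Affymetrix mouse expression arrays of mouse CD4+ T cells in 4 groups of 3, all from female mice on a BALB/c background. The SKG group came from SKG mice, which carry a point mutation in Zap70, the kinase that the T cell receptor recruits first. It was set against BALB, from BALB/c mice. Both were 40 weeks old, their cells are labelled as treated with PMA and ionomycin, and SKG and BALB replicates 2 and 3 were lymph node CD4+ cells lacking the folate receptor FR4. BALB replicate 1 differs, being labelled as CD4+ cells of spleen and lymph node with no FR4 sort. The IFN-γ-deficient transfer group held spleen CD4+ cells 7 days after CD4 T cells of IFN-γ knockout mice entered RAG2 knockout hosts. The IL-6-deficient transfer group was made in the same way with IL-6 knockout T cells in hosts lacking both IL-6 and RAG2. The transfer labels give an age of 7 weeks and name no stimulation. RAG2-deficient hosts make no mature T or B cells of their own, there was no transfer group of wild-type cells, and the groups differ in host as well as donor genotype.

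When a T cell receptor binds antigen, the kinases Lck and Zap70 phosphorylate the receptor chains and the adaptor Lat, and phospholipase C then makes diacylglycerol and calcium signals. The products of the 10 genes act against these steps. Cd5 and Cd6 are surface receptors that recruit inhibitory proteins to the receptor complex. Ptpn6 (SHP-1) and Ptpn22 (PEP) are phosphatases that remove phosphate from receptor-proximal proteins, and Ubash3a is a related dampener with a phosphatase-like domain. Cblb and Rnf128 (GRAIL) are ubiquitin ligases, the diacylglycerol kinases Dgka and Dgkz consume diacylglycerol, and Sla is an adaptor that helps to bring receptor chains down from the surface. PMA mimics diacylglycerol and ionomycin raises calcium, so the treatment named in the SKG and BALB labels acts below the receptor.

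Replicate 3 stood apart from replicates 1 and 2, most of all in the transfer groups. The 3'/5' signal ratio of the actin control, a measure of RNA integrity, was 3.81 in IFN-γ-deficient replicate 3 and 5.13 in IL-6-deficient replicate 3, against 1.60 to 1.67 in the other 4 transfer arrays. It was 2.12, 1.93 and 2.63 in SKG replicates 1 to 3 and 3.04, 2.95 and 3.98 in BALB, so the SKG arrays all lay below the BALB arrays. The same ratio of the Gapdh control did not separate them, at 3.03, 2.57 and 2.90 in SKG and 3.28, 3.03 and 2.86 in BALB. The trimmed mean of the deposited intensities ran from 162 to 235. All 7 T cell markers read, Cd2, Cd3d and Cd28 among them, passed the filter on dim genes in both comparisons. Of these, Cd4 was at 6.60 to 7.21 in SKG, 6.62 to 6.79 in BALB, 8.01 to 8.48 in the IFN-γ-deficient and 7.89 to 8.78 in the IL-6-deficient transfer. Izumo1r, the gene of FR4, was at 7.00, 7.15 and 7.35 in SKG and at 6.45, 6.39 and 6.15 in BALB, replicates in order. It was higher in SKG by 0.84 ± 0.18 (SE, limma adjusted p = 0.0093). BALB replicate 1, not sorted on FR4, lay below every SKG array, so the message level did not bear out the FR4 labels. Surface FR4 was not measured here. Ifng checked its label, at 9.41 ± 0.47 in the IFN-γ-deficient transfer and 13.56 ± 0.02 in the IL-6-deficient transfer (log2 intensity, SD, n = 3). Il6 did not bear out the other label, at 4.54, 4.76 and 6.83 in the IFN-γ-deficient transfer and 5.66, 5.83 and 8.05 in the IL-6-deficient transfer. It was higher in the array labelled IL-6-deficient in 3 of 3 pairs (limma adjusted p = 1.0, and 0.015 with a replicate block), though replicates 1 and 2 lay near the tested floor of 4.72. Pairs are arrays of the same replicate number throughout. Arrays 1 and 2 correlated about as much across numbers as within them, so the numbers mainly set replicate 3 apart. Whether its probe set lies in the deleted part of the gene is not known here, and the transfer groups are named throughout as labelled. Levels are given throughout as log2(intensity + 16) after quantile normalization. This scale understates changes of dim genes, and levels of different genes cannot be set against each other.

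In SKG cells, 4 of the 10 regulators fell relative to BALB cells and 0 rose. The 4 were Cd5, Ptpn6, Dgkz and Ubash3a, with falls between 0.67 and 0.97 on the log2 scale. They came from 4 different steps, a surface receptor, a tyrosine phosphatase, a diacylglycerol kinase and a phosphatase-like dampener. Over all 12076 genes tested by limma, 11.8% fell and 15.7% rose at an adjusted p under 0.05, or 27.5% in either direction. The median log2 difference of the 10 members was -0.35, against 0.06 over all genes tested. All 10 members passed the filter on dim genes. At an unadjusted p under 0.05 there were 7 lower members and 1 higher, where 16.5% of all genes were lower and 38.9% passed in either direction. As these are bulk samples, fewer cells that make a transcript and less of it per cell cannot be told apart.

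**Figure D1:**
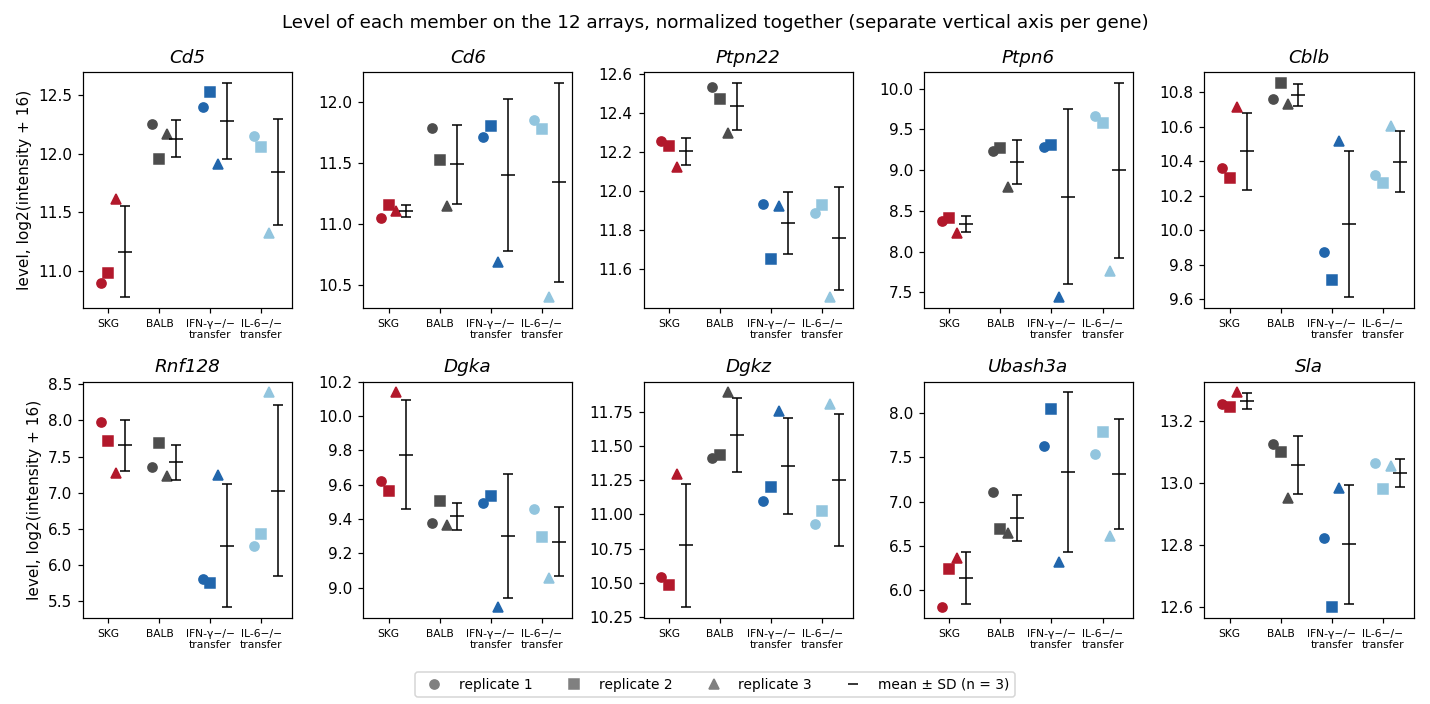
Levels of the 10 members on all 12 arrays, normalized together, as log2(intensity + 16), with a separate vertical axis for each gene. Points are arrays, with a shape for each replicate number, and bars are the mean ± SD of 3 arrays; SKG lies below BALB without overlap for Cd5, Ptpn6, Dgkz and Ubash3a, and replicate 3 of both transfer groups lies far from replicates 1 and 2 for Ptpn6, Cd6, Rnf128 and Ubash3a.

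Cd5, the receptor whose surface level is set by the strength of receptor signals during thymic selection, was at 10.91, 11.01 and 11.63 in the 3 SKG arrays (replicates in order, as in all such lists), against 12.28, 11.99 and 12.20 in BALB. Every SKG array lay below every BALB array, and SKG replicate 3 was nearest to them. The difference was -0.97 ± 0.19 (SE, limma adjusted p = 0.0054), or 1.96-fold lower in SKG. The call held without each array in turn, with adjusted p from 0.00017 without SKG replicate 3 to 0.027 without BALB replicate 1. It was lost without normalization between arrays (adjusted p = 0.054). Cd6, a receptor built like Cd5, had 11.07, 11.18 and 11.13 in SKG and 11.82, 11.54 and 11.17 in BALB. BALB replicate 3 fell within the SKG range, and the difference of -0.38 ± 0.16 did not pass (adjusted p = 0.11).

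Alcam, the cell surface ligand of Cd6, was measured in the same cells. It was at 10.47, 10.09 and 8.92 in SKG and at 7.84, 8.01 and 7.36 in BALB, a rise of 2.09 ± 0.36 (adjusted p = 0.0037). All SKG arrays were higher than all BALB arrays, with replicate 3 the lowest in both groups.

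Of the phosphatases, Ptpn6 was at 8.37, 8.41 and 8.21 in SKG and at 9.24, 9.29 and 8.79 in BALB. The groups did not overlap, and the difference was -0.78 ± 0.18 (adjusted p = 0.012), or 1.71-fold lower in SKG. Leaving out BALB replicate 1 or BALB replicate 2 ended the call (adjusted p = 0.060 and 0.055), as did one model over the 12 arrays (0.33). Ptpn22 was at 12.28, 12.26 and 12.16 in SKG against 12.57, 12.50 and 12.32 in BALB. Its arrays did not overlap either, but the difference was small, at -0.23 ± 0.10, and did not pass (adjusted p = 0.11). Ubash3a was dim, at 5.82, 6.25 and 6.38 in SKG and 7.11, 6.70 and 6.65 in BALB. The groups lay apart and the difference of -0.67 ± 0.22 passed narrowly (adjusted p = 0.047, and 0.052 with a replicate block). It passed in 5 of 19 alternatives and in 1 of the 6 that left out a single array, the one without SKG replicate 3 (adjusted p up to 0.17 in the others).

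Ptpn6 is also made by B cells and myeloid cells, so markers of other cells were read beside it. The summed intensity of 9 B cell markers ran from 2969 to 7001 in SKG and from 732 to 2512 in BALB. These sums were mostly Ighm, at a mean level of 12.16 in SKG and 10.22 in BALB, against 6.37 and 6.05 for Ms4a1. Ighm, which rose by 1.94 ± 0.44, was the 1 of 6 tested B cell markers that passed. Pax5, Cd79b and Fcrla were below the tested floor. Of 5 tested macrophage markers 0 passed by limma, with sums of 88.0 to 162 in SKG and 94.5 to 163 in BALB. Of 3 plasma cell markers 1 rose (Derl3, by 0.80 ± 0.20). Jchain differed by 1.01 ± 0.43 and Sdc1 the other way, by -0.64 ± 0.25, and neither passed (limma adjusted p = 0.11 and 0.085). The sums, mostly from Jchain, were 551 to 944 in SKG and 225 to 690 in BALB. Of 2 tested NK cell markers 1 rose (Gzma, by 3.07 ± 0.17), and Klrk1 did not pass (0.47 ± 0.29, limma adjusted p = 0.26). The NK marker sums, mostly from Gzma, were 1905 to 2522 in SKG and 248 to 326 in BALB, and Ncr1 was below the floor. Zbtb46, a dendritic cell marker, also rose (1 of 4 tested, adjusted p = 0.047, and 0.055 with a replicate block), as did Thy1 among 7 T cell markers (by 1.45 ± 0.15). The 2 markers of CD8 T cells went opposite ways. Cd8b1 fell by 2.49 ± 0.43, and Cd8a differed by 0.81 ± 0.29 and did not pass (limma adjusted p = 0.072). Their summed intensity was 29.4 to 127 in SKG and 235 to 251 in BALB, in BALB mostly from Cd8b1. The part of these cells in the results was not tested.

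The diacylglycerol kinases did not move together. Dgkz was at 10.56, 10.51 and 11.32 in SKG and at 11.44, 11.45 and 11.93 in BALB. Replicate 3 was the highest array of both groups, and no SKG array reached the lowest BALB array. The difference was -0.81 ± 0.23 (adjusted p = 0.028), or 1.75-fold lower in SKG, and it was lost without SKG replicate 1 (adjusted p = 0.11), SKG replicate 2 (0.10), BALB replicate 1 (0.052) or BALB replicate 3 (0.084), and without normalization (0.13), the filter (0.051) or the intensity trend (0.057). Dgka, linked like Dgkz to the unresponsive state called anergy, had 9.64, 9.58 and 10.16 in SKG and 9.39, 9.52 and 9.37 in BALB. Its SKG arrays were all higher, and the difference of 0.36 ± 0.18 did not pass (adjusted p = 0.17).

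The ubiquitin ligases and the adaptor did not pass on their brightest probe sets. Cblb, which tags signalling proteins such as phospholipase C and Vav1, was at 10.38, 10.32 and 10.73 in SKG and at 10.78, 10.88 and 10.75 in BALB, a difference of -0.32 ± 0.14 (adjusted p = 0.12). Taking the median over its 3 probe sets gave -0.61, which passed (0.0093), as did -0.45 without SKG replicate 3 (0.018). Rnf128, also called GRAIL and linked to anergy, had 7.96, 7.70 and 7.28 in SKG and 7.35, 7.68 and 7.22 in BALB. Its groups overlapped, with a difference of 0.23 ± 0.22 (adjusted p = 0.49) and a 95% interval from -0.27 to 0.72. Sla was at 13.28, 13.27 and 13.31 in SKG and 13.15, 13.13 and 12.99 in BALB, a small difference of 0.20 ± 0.08 (adjusted p = 0.085). In all, 6 members had every SKG array below every BALB array and 2 had every one above, where 18.4% and 24.9% of all genes did so.

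**Figure D2:**
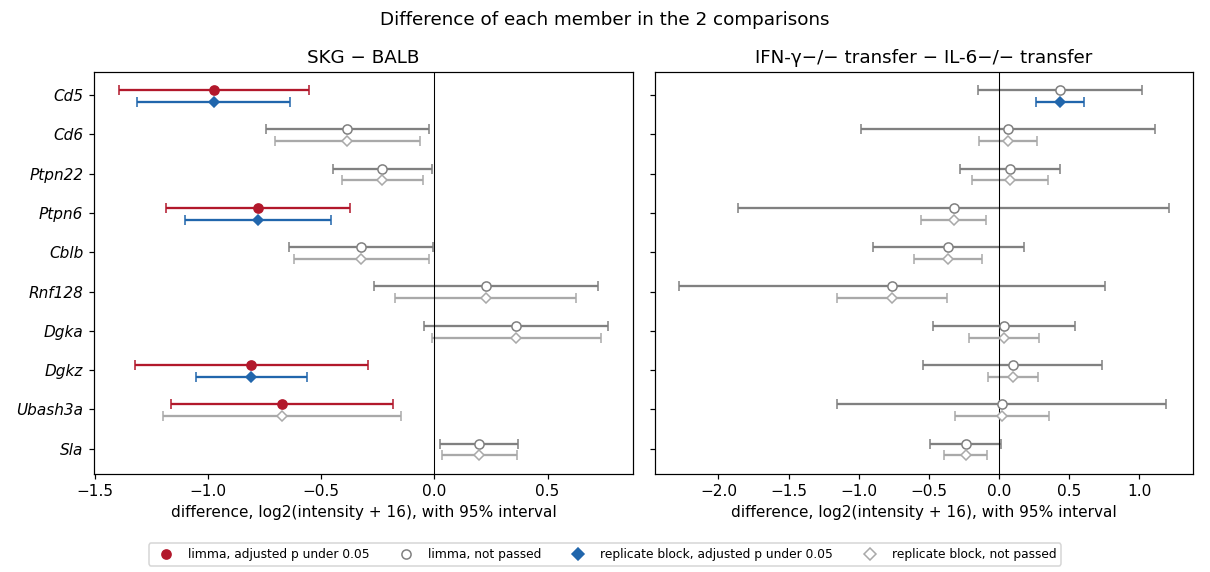
Differences of the 10 members on the log2(intensity + 16) scale with 95% intervals, SKG minus BALB on the left and IFN-γ-deficient minus IL-6-deficient transfer on the right. Circles are the limma fit and diamonds the fit with a replicate block, filled where the adjusted p is under 0.05; Cd5, Ptpn6, Dgkz and Ubash3a are filled circles on the left, no circle is filled on the right, and the Cd5 diamond is filled on both sides with opposite signs.

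The count of 4 depended on which arrays were kept. When BALB replicate 1, not sorted on FR4, was left out, Cd5 alone passed, where 7.23% of all genes fell and 10.4% rose. Without replicate 3 of both groups, 7 members fell (Cd5, Cd6, Ptpn22, Ptpn6, Cblb, Dgkz and Ubash3a), where 18.3% of all genes fell and 23.8% rose. With the replicate block 3 members fell (Cd5, Ptpn6 and Dgkz), where 14.6% of all genes fell and 19.9% rose. The actin ratio, which separated SKG from BALB arrays where the Gapdh ratio did not, was not tested as a part of these differences.

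All 19 probe sets passed the filter. Fitted separately, 5 were lower in SKG and 0 higher, where 9.88% of all probe sets tested were lower and 10.3% higher. Both probe sets of Dgkz fell, by 0.81 and by 0.87 (adjusted p = 0.033 and 0.0098). For Ptpn6 the brighter one fell, and the other differed by -0.54 ± 0.23 (adjusted p = 0.14, and 0.033 with a replicate block). Cblb disagreed within itself. One of its dimmer probe sets had 9.50, 10.08 and 10.00 in SKG and 10.67, 10.73 and 10.71 in BALB, a fall of 0.84 ± 0.17 (adjusted p = 0.0084). Its other probe sets differed by -0.32 and -0.18 and did not pass. In this fit Ubash3a did not pass, at -0.67 and -0.63 (adjusted p = 0.058 and 0.20). The 4 probe sets of Sla and the 2 of Rnf128 were all positive, from 0.18 to 0.46, and none passed.

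**Figure D3:**
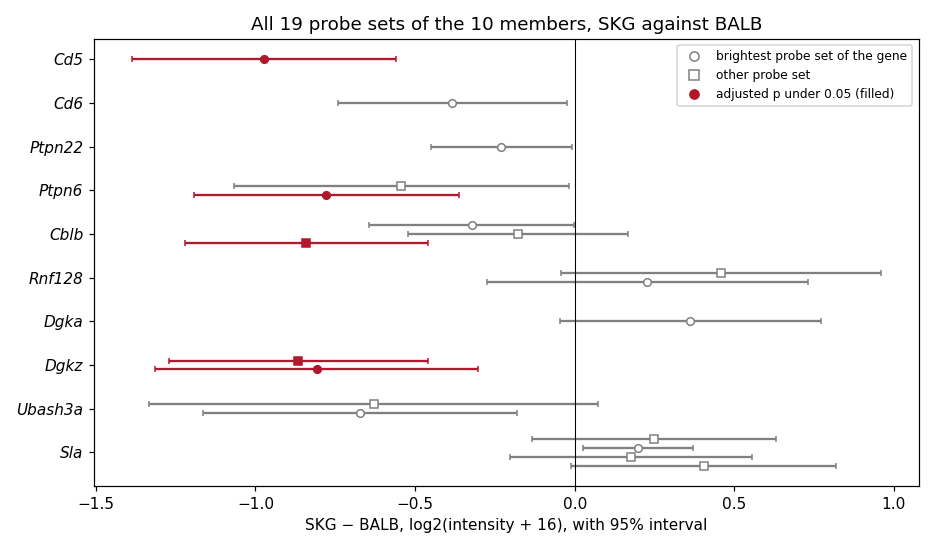
SKG minus BALB difference of each of the 19 probe sets on the log2(intensity + 16) scale, with 95% intervals, grouped by gene. Circles are the brightest probe set of a gene and squares its other probe sets, filled where the adjusted p over all probe sets is under 0.05; 5 are filled, those of Cd5 and Dgkz and one each of Ptpn6 and Cblb, all to the left of 0.

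The promoters of the 4 genes that fell are shown because these genes were lower together. They are the 250 bases before each annotated start from RefSeq (GRCm38.p6), 5' to 3' on the strand of the gene, with 2 starts for Dgkz. Capitals mark matches, on either strand, to the GC box GGGCGG, the ETS core GGAAGT or the E-box CAGNTG.
Cd5, chr19:10738975-10739224, minus strand: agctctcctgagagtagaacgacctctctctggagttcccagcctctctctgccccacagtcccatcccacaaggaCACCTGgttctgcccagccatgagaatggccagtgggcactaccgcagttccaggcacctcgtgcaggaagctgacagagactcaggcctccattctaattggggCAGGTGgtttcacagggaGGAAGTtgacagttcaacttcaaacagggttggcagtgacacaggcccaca
Ptpn6, chr6:124738710-124738959, minus strand: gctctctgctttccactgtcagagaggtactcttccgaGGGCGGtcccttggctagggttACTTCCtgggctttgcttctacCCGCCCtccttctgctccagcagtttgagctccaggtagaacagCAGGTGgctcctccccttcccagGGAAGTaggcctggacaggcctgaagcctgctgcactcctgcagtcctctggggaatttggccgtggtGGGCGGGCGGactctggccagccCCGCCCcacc
Dgkz, chr2:91963564-91963813, minus strand: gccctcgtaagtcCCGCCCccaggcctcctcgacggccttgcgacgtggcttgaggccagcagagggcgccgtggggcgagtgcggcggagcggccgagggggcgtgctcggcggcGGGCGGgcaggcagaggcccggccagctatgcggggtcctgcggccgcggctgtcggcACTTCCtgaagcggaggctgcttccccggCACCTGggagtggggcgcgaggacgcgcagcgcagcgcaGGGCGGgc
Dgkz, chr2:91950349-91950598, minus strand: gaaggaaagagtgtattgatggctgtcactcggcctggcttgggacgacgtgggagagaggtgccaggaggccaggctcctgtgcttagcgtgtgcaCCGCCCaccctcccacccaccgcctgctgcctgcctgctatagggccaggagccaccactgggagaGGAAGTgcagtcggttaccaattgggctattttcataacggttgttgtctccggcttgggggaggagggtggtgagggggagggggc
Ubash3a, chr17:31207816-31208065, plus strand: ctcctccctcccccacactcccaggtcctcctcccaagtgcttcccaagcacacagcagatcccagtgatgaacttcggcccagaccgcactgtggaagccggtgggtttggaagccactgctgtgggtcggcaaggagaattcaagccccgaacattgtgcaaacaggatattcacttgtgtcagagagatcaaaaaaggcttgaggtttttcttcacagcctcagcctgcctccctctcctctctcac

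Of the 5 promoters printed, those of Cd5, Ptpn6 and Dgkz held an ETS match, as did 19.7% of 32851 mouse promoters of the same length. In Cd5 it began at base -51 from the start, with E-box matches at -69 and -174, a motif that 44.8% of promoters hold. The Ptpn6 promoter held 5 GC box matches, of which 2 overlap, and Dgkz held 3 and 1, while 32.7% of promoters held at least 1. The Ubash3a window held no match to these motifs, nor to the RUNX motif TGTGGT or TATAAA, which 14.0% and 12.4% of promoters hold. The tables matched 8 of the 10 members, with 13 starts, of which 5 held an ETS match. These are matches of letters only.

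Other genes of the pathway were read from lists. Of 29 tested further negative regulators 10 fell in SKG and 1 rose, with a median difference of -0.24, where 11.8% of all genes fell and 15.7% rose. With the replicate block the counts were 11 and 2. Spry1, an inhibitor of the Ras pathway, fell by 1.07 ± 0.14 (SE, adjusted p = 0.00091), and Tnfaip3, which limits NF-κB signals, fell by 0.66 ± 0.10 (0.0020). Peli1, a ubiquitin ligase, fell by 0.64 ± 0.10 (0.0028) and Rc3h1, which represses messages such as that of Icos, by 0.82 ± 0.14 (0.0030). The 1 that rose was Nedd4, at 6.99, 7.09 and 6.56 in SKG and 5.67, 5.69 and 5.63 in BALB. It is a ubiquitin ligase known to act on Cbl-b, itself a negative regulator. Counting Nedd4 as a negative regulator is therefore a choice of the list. Without BALB replicate 1 the counts were 9 lower and 1 higher. Without replicate 3 of both groups they were 11 and 6.

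Of 18 tested genes of the receptor machinery that these regulators act on, 3 fell and 1 rose in SKG, with a median of -0.09. The 4 genes called are no larger a share than the 27.5% of all genes called. With the replicate block 4 fell and 2 rose. Zap70, the gene mutated in SKG mice, was at 10.86, 11.07 and 10.86 in SKG and 11.69, 11.65 and 11.26 in BALB, a fall of 0.60 ± 0.14 (adjusted p = 0.014). Lat fell by 0.71 ± 0.18 (0.019) and Cd247, the receptor's zeta chain, by 0.49 ± 0.16 (0.048). Themis, an adaptor that binds the phosphatase encoded by Ptpn6, rose by 2.03 ± 0.18 (0.00021) and was at 9.88, 9.91 and 9.57 in SKG against 7.49, 7.95 and 7.84 in BALB. Without BALB replicate 1 there was 1 lower and 1 higher gene, and without replicate 3 of both groups there were 5 and 2.

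Of 7 tested genes induced in anergic T cells, 3 fell in SKG and 0 rose, with a median of -0.21, where 11.8% of all genes fell. Ndrg1, a factor that promotes anergy, fell by 2.76 ± 0.30 (adjusted p = 0.00045). Nr4a1 fell by 1.18 ± 0.09 (0.00012) and Egr3 by 1.19 ± 0.18 (0.0019), both transcription factors induced by receptor signals. The same counts were found without BALB replicate 1.

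**Figure D4:**
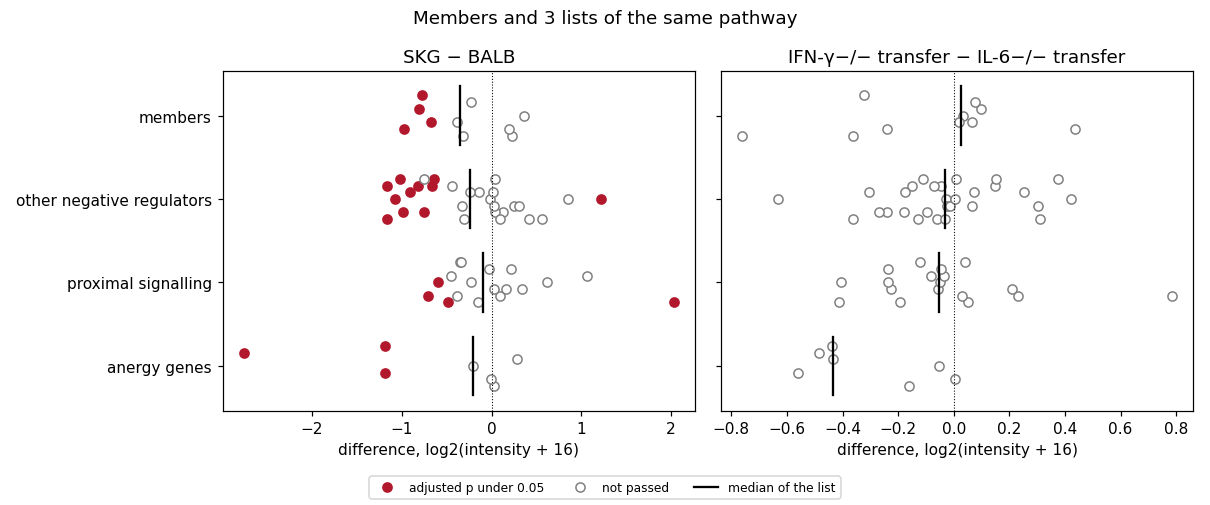
Differences on the log2(intensity + 16) scale of the 10 members and of the tested genes of 3 lists, SKG minus BALB on the left and IFN-γ-deficient minus IL-6-deficient transfer on the right. Each point is a gene, filled where its adjusted p is under 0.05, and the vertical bar is the median of the list; on the left the members' median is -0.35 and Ndrg1 is the lowest point, and on the right no point is filled.

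Between the transfer groups, named as labelled, none of the 10 members passed by limma, and 0 reached an unadjusted p under 0.05. Of all 12260 genes tested 0.114% passed (0.0653% higher and 0.0489% lower), and 4.34% had an unadjusted p under 0.05. The median difference of the members was 0.03, against 0.0038 over all genes tested. In each of the 10 genes the arrays of the groups overlapped, where in 5.41% of all genes every IFN-γ-deficient array was above every IL-6-deficient array and in 4.53% below. Fitted separately, 0 of the 19 probe sets passed by limma, where 0.0259% of all probe sets were higher and 0.0185% lower. At an unadjusted p under 0.05 there was 1 of the 19, and the share of all probe sets at that threshold was not counted. The spread within the groups was large and mostly that of replicate 3.

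Ptpn6 and Rnf128 show this. Ptpn6 was at 9.27, 9.29 and 7.44 in IFN-γ-deficient replicates 1 to 3 and at 9.65, 9.56 and 7.78 in the IL-6-deficient transfer. Replicate 3 deviated by -1.86 from the mean of replicates 1 and 2 in both groups, while the groups differed by -0.32 ± 0.65 (SE, adjusted p = 1.0). The interval of that difference ran from -1.86 to 1.21. Paired by replicate number, which mainly sets replicate 3 apart, the IFN-γ-deficient array was the lower one in 3 of 3 pairs. With the replicate block the interval was -0.56 to -0.09 (adjusted p = 0.19). Rnf128 was at 5.80, 5.74 and 7.25 in the IFN-γ-deficient transfer and at 6.25, 6.42 and 8.40 in the IL-6-deficient transfer, with replicate 3 the highest in both and a difference of -0.76 ± 0.65. It too was lower in the IFN-γ-deficient array in 3 of 3 pairs, with a blocked interval of -1.15 to -0.37 (adjusted p = 0.076). The difference was -1.27 without IFN-γ-deficient replicate 3 and -0.075 without IL-6-deficient replicate 3.

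Cd5 was at 12.37, 12.49 and 11.87 in the IFN-γ-deficient transfer and at 12.12, 12.01 and 11.30 in the IL-6-deficient transfer. For each replicate number the IFN-γ-deficient array was higher, though the groups overlapped. The difference was 0.43 ± 0.25 (adjusted p = 1.0) and passed with the replicate block (adjusted p = 0.028), where 1.79% of all genes passed. It was the 1 member that did so. With replicates 1 and 2 alone Cd5 rose by 0.35 (adjusted p = 0.015), Cblb fell by 0.49 (0.013) and Sla fell by 0.31 (0.035) in the IFN-γ-deficient transfer, where 2.13% of all genes were higher and 1.94% lower.

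Cblb was at 9.85, 9.70 and 10.50 in the IFN-γ-deficient transfer and at 10.30, 10.25 and 10.58 in the IL-6-deficient transfer, a difference of -0.36 ± 0.23. Sla was at 12.78, 12.57 and 12.95 against 13.04, 12.95 and 13.03, a difference of -0.24 ± 0.11. Both were lower in the IFN-γ-deficient array in 3 of 3 pairs, with blocked intervals of -0.60 to -0.12 for Cblb and -0.39 to -0.08 for Sla, and neither passed with the block over all genes (adjusted p = 0.17 and 0.15). Differences of Cd6, Ptpn22, Dgka, Dgkz and Ubash3a lay between 0.02 and 0.10, and each changed sign under other settings. Of the related lists, 0 of 29 further regulators, 0 of 18 receptor genes and 0 of 7 anergy genes passed by limma. Of the further regulators Nedd4 (-0.63 ± 0.25) and Spred1 (0.30 ± 0.15) had the smallest unadjusted p (0.040 and 0.091). Of the receptor genes these were Txk (0.78 ± 0.25) and Themis (-0.41 ± 0.17), with an unadjusted p of 0.015 and 0.045. Of the anergy genes they were Lag3 (-0.43 ± 0.23) and Nr4a1 (-0.44 ± 0.43), with 0.093 and 0.34. With the replicate block Egr3 and Nr4a1 were lower (adjusted p = 0.021 and 0.023). Alcam was at 10.83 ± 0.42 in the IFN-γ-deficient transfer and 10.88 ± 0.54 in the IL-6-deficient transfer (SD, n = 3).

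Replicate 3 of each group was set against its replicates 1 and 2 over all members. In the IFN-γ-deficient transfer 8 of the 10 members and in the IL-6-deficient transfer 6 of 10 deviated by over 0.5 on the log2 scale, against 34.7% and 38.2% of 12176 genes. In SKG and BALB 4 and 1 members did so, against 25.4% and 25.7% of genes. Replicates 1 and 2 differed by over 0.5 in 0 of the 10 members in every group, where between 9.30% and 12.8% of genes did. Probe sets of 1 gene could disagree about replicate 3. The brighter Ptpn6 probe set was at -1.86 there in both transfer groups, while its other one was at -0.11 in the IFN-γ-deficient and 0.57 in the IL-6-deficient transfer. The brighter Dgkz probe set was at 0.60 and 0.83 in these groups and its other one at -0.85 and -0.81. The actin ratios given above were highest in the same arrays among the transfer groups, and their part in these values was not tested. Cell content may differ too. With the 6 transfer arrays normalized together, S100a8, a neutrophil marker, was at 5.48, 7.16 and 7.35 in the IFN-γ-deficient transfer. In the IL-6-deficient transfer it was at 6.01, 4.82 and 9.85. S100a9 and Camp were also highest in IL-6-deficient replicate 3, and Elane was not. Of these 4 markers 0 passed by limma, and their part was not tested.

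**Figure D5:**
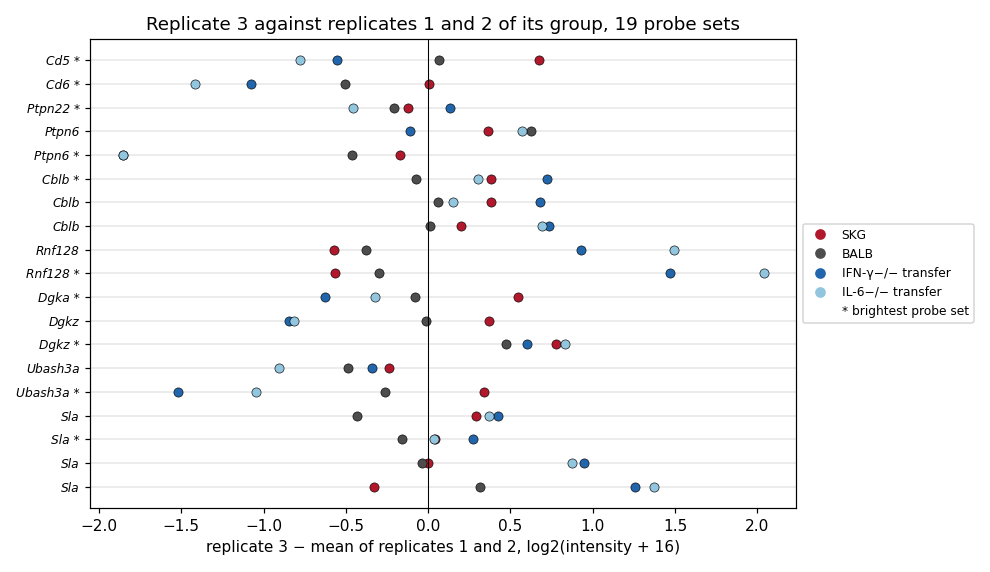
Deviation of replicate 3 from the mean of replicates 1 and 2 of its group, on the log2(intensity + 16) scale, for each of the 19 probe sets and 4 groups, with the 12 arrays normalized together. An asterisk marks the brightest probe set of a gene; points of the transfer groups lie farthest out, from -1.86 for Ptpn6 to 2.04 for Rnf128, and the probe sets of Dgkz and of Ptpn6 lie apart from each other.

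The change in Cd5 differed between the comparisons. The SKG minus BALB difference less the IFN-γ-deficient minus IL-6-deficient difference was -1.40 ± 0.34 (SE, limma interaction over 12 arrays, adjusted p = 0.026), and 8.24% of 12176 genes passed this test. It was the 1 member that passed. With the replicate block 4 members passed, where 25.6% of genes did. These were Cd5 (adjusted p = 0.00035), Dgkz (-0.90, 0.00076), Sla (0.44, 0.010) and Rnf128 (0.99, 0.014). The comparisons share no array, and they differ in age, stimulation, tissue and genotype at once. The Cd5 call was lost without SKG replicate 1 or 2, BALB replicate 1 or 3, or IFN-γ-deficient replicate 1 or 2 (adjusted p from 0.060 to 0.075), and without normalization (0.11).

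Across the 4 groups, with the 12 arrays normalized together, the order of mean levels was not the same from gene to gene. Cd5 averaged 11.16 ± 0.39 in SKG, 12.13 ± 0.16 in BALB, 12.28 ± 0.33 in the IFN-γ-deficient and 11.84 ± 0.45 in the IL-6-deficient transfer (SD, n = 3). SKG was lowest, and its highest array, 11.61, lay within the range of the IL-6-deficient arrays. Cd6, Ptpn6 and Dgkz were also lowest in SKG and highest in BALB, with every neighbouring pair of groups in that order overlapping. Ubash3a was lowest in SKG at 6.14 ± 0.29, apart from BALB at 6.82 ± 0.26, and highest in the IFN-γ-deficient transfer at 7.33 ± 0.90. Ptpn22 was lower in both transfer groups, at 11.84 ± 0.16 and 11.76 ± 0.26, than in SKG at 12.20 ± 0.07 and BALB at 12.43 ± 0.12, and the transfer groups overlapped each other alone. Cblb was highest in BALB, apart from SKG, and Sla and Dgka were highest in SKG, apart from BALB, with all other neighbours overlapping. Rnf128 was highest in SKG at 7.66 ± 0.35 and lowest in the IFN-γ-deficient transfer at 6.27 ± 0.85, the widest span of group means of any member, 1.39, and all neighbours overlapped. These orders are a description, since age, stimulation and tissue differ between the pairs of groups.

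Rnf128 and Ubash3a, the members whose group means spanned most, were set against 12175 other genes over the 12 arrays. The closest to Rnf128 were Crem (Pearson r = 0.95), Plagl1 (0.94) and Helz2 (0.93). Those closest to Ubash3a were Vps72 (0.97), Tfpt (0.97) and Ncdn (0.96). The points of these correlations share groups and replicate 3, so they describe the arrays only.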

How the data were processed

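The deposited table gives a linear intensity for each of 45101 probe sets on each array. No label or header names the authors' software or scaling. The labels' protocols name an RNeasy extraction and biotin labelling. The medians of the 12 arrays differed by up to 1.76 times, above a limit of 1.5. On that ratio the 6 arrays of each comparison (12 for levels across groups and the interaction) were quantile normalized, leaving out 64 control probe sets. The plan set the limit for each comparison by itself. The 6 transfer arrays alone differed by 1.21 times, so their normalization departs from it, and values without normalization are given below. The normalized intensities were then taken as log2(intensity + 16). In the probe annotation 34958 probe sets had a single gene, 932 had more and 9160 were not listed. Symbols were updated by gene ID for 34754. No gene coordinates are given for probe sets. The brightest probe set stood for each gene and was tested where its mean level was at or above the 40th percentile (4.75 in SKG and BALB, 4.72 in the transfer groups). Differences were fitted with limma 3.58.1 in R 4.3.3 (intensity trend, two-sided, Benjamini-Hochberg over all genes tested, adjusted p under 0.05). The fits were tested on simulated data.

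The members and lists were chosen with earlier results of these data known. Named genes are the 10 members, Alcam, up to 4 passing genes per list and direction by smallest p (or 2 where none passed), 3 genes most like each of 2 members, label checks, and markers. The labels number replicates 1 to 3 in each group. Deviations of same-numbered arrays correlated at 0.13, 0.20 and 0.33 (SKG with BALB) and 0.46, 0.45 and 0.70 (transfer groups), all over 0.1, so a replicate block was fitted, and its value is given where it changes the call of a gene or probe set named. Differently numbered arrays 1 and 2 correlated as much (0.17 and 0.17, and 0.44 and 0.41), so the numbers mainly set replicate 3 apart from replicates 1 and 2. No label says whether replicates are separate animals. The p-values therefore cover the spread among these arrays alone, some of which may be technical, and the number of arrays limits the precision.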

Additional observations from a re-analysis of the deposited data

Results flagged for a closer look

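Cd5 moved differently in the comparisons by a test of the difference itself. Its SKG minus BALB difference less its IFN-γ-deficient minus IL-6-deficient difference was -1.40 (limma interaction, adjusted p = 0.026). This call passed in 12 of 19 alternatives. Cd5 was lower in 3 of 3 SKG arrays than in every BALB array, and higher in the IFN-γ-deficient array than in the IL-6-deficient array for 3 of 3 replicate numbers. The arrays of the transfer groups overlapped, their difference did not pass by limma, and the replicate numbers mainly set replicate 3 apart.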

How the results depend on the processing

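Over 19 alternatives, 0 of the 190 differences of members between SKG and BALB changed sign, 25 lost the call and 7 gained it. Between the transfer groups 24 of 190 changed sign. The count of 4 lower members was 2 without the filter, 1 without normalization, 2 without the trend and 2 with all 12 arrays in one fit, and 1 to 7 when arrays were left out. Over all genes, without normalization 1130 were higher and 830 lower in SKG, and when arrays were left out 1114 to 2866 were higher and 874 to 2204 lower. The 2 higher pathway genes in SKG became 4 with an added constant of 64, with the median of probe sets and with the replicate block, and 2 to 8 when arrays were left out. In the transfer groups the replicate block gave 1 higher member, 2 lower pathway genes, and 95 higher and 124 lower genes overall. Higher genes overall were 5 without the filter, 4 with the median of probe sets and 21 with all 12 arrays in one fit. When arrays were left out these counts ran from 1 to 262 higher and 1 to 239 lower, with 0 to 1 higher and 0 to 2 lower members, and 0 to 1 higher and 0 to 5 lower pathway genes. Without normalization the transfer differences were -0.041 for Cd6, -0.037 for Ptpn22, -0.084 for Dgka, -0.047 for Dgkz and -0.042 for Ubash3a. With the median of probe sets they were 0.065 for Cblb and -0.082 for Dgkz. When arrays were left out they ran from -0.40 to 0.42 for Cd6, -0.11 to 0.16 for Ptpn22, -0.93 to 0.29 for Ptpn6, -0.077 to 0.23 for Dgka, -0.10 to 0.37 for Dgkz, -1.27 to -0.075 for Rnf128 and -0.35 to 0.54 for Ubash3a.

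Members that differed between the comparisons were 0 without normalization, 4 with the replicate block and 0 to 2 when arrays were left out. That difference was -0.68 for Cblb with the median of probe sets, and when arrays were left out it ran from -0.12 to 0.28 for Cblb, -0.80 to 0.030 for Cd6 and -1.05 to 0.18 for Ptpn6. The lists were also counted one by one without BALB replicate 1 and without replicate 3 of both groups, a choice made after seeing the data. Receptor genes lower in SKG were 1 to 5 and higher 1 to 2, and further regulators higher were 1 to 6. Without replicate 3 the transfer groups had 1 higher further regulator, 2 lower receptor genes and 3 lower anergy genes. The replicate block ended the SKG call of Ubash3a and brought that of Cd5 in the transfer groups, and changed no other call of a member within a comparison. Fits without an array assume that the remaining arrays vary alike. The causes were not tested.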

Other observations

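Before normalization the deposited intensities of Cd5 were 1619, 1738 and 3779 in the 3 SKG arrays and 4550, 3731 and 6003 in the BALB arrays, so SKG replicate 3 slightly exceeded BALB replicate 2. Those of Dgkz were 1260, 1238 and 3028 in SKG and 2597, 2584 and 4957 in BALB, where SKG replicate 3 exceeded 2 BALB arrays. The deposited intensities of Ptpn6 were 271, 300 and 325 in SKG and 565, 564 and 510 in BALB, with no overlap.

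A dimmer probe set of Sla was at 9.16, 9.06 and 9.52 in the IFN-γ-deficient transfer and at 9.86, 9.74 and 10.17 in the IL-6-deficient transfer. Every IFN-γ-deficient array was below every IL-6-deficient array, and the difference of -0.68 ± 0.19 did not pass over all probe sets (limma adjusted p = 0.94) and passed with the replicate block (0.0093).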
